A study of Mus musculus with 12 samples.

Results

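Expression of 10 endothelial marker genes was described in mouse liver: Stab1, Stab2, Lyve1, Clec4g, Fcgr2b and Oit3, which mark the lining of the sinusoids, and Pecam1, Cdh5, Vwf and Cd34, which mark endothelium more widely. They were picked by gene symbol from 16239 named genes, with earlier results of these data known. All 10 were listed in each of the 12 libraries and passed the filter on low counts, so that all 10 were among the 12587 genes tested.

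Liver sinusoids are lined by endothelial cells that have open pores and little basement membrane, and that take up waste molecules from the blood through scavenger receptors. The endothelium of the central and portal veins and of ordinary capillaries instead carries a closed lining with von Willebrand factor or CD34. When sinusoidal cells lose their pores and gain capillary features, as is known from fibrotic and fatty liver, the change is called capillarization.

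The libraries came from total RNA of frozen whole liver of mice of strain 129/B6, 10 months of age, kept on a diet labelled LF or HF for 8 months. In each diet 3 libraries carried the floxed gene for thrombospondin 1 (TSP1, gene Thbs1) and a genotype label of wild type, and 3 are labelled as lacking TSP1 in macrophages. The groups are named here by diet and genotype (LF floxed and LF knockout, then their HF counterparts), and the question of the study was the role of macrophage TSP1 in fatty liver. The Cre driver is not given in the sources used here, and the labels number the replicates without naming animals, so that p-values reflect how far these libraries scatter, which may be a technical matter. In whole liver, fewer endothelial cells and less RNA per cell cannot be told apart.

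Depth was even, with 13336969 to 15080378 estimated counts in named genes per library. Thbs1 was no lower where the label says knockout: it was 0.11, 0.06 and 0.07 FPKM in LF floxed, 0.08, 0.55 and 0.55 in LF knockout, 0.75, 0.75 and 0.31 in HF floxed and 0.16, 1.42 and 1.63 in HF knockout. Its level in whole liver does not check a deletion limited to macrophages. FPKM is the number of fragments scaled to transcript length and to the size of the library. The 3 HF knockout libraries stood apart from each other, with correlations of log2 counts of 0.7521 to 0.9215, against 0.9361 to 0.9883 within the other groups. LF knockout replicates 2 and 3 (median chi-square per gene 1.07) and HF floxed replicates 1 and 2 (2.08) were closer than the other pairs (3.99 to 20.8), but differed by more than counting noise and were kept as separate libraries. Such a difference does not show that they came from separate animals, so n counts libraries.

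Promoter sequences are shown for 3 members that stood differently in the diet comparison: Cd34 and Stab2, whose HF floxed values lay above all LF floxed values, and Clec4g, whose values overlapped. The sequences are from RefSeq (GRCm38.p6, a later build than the files' mm9), 5′ to 3′ on the gene's strand and ending at the gene's outermost start. They span chr1:194938571-194938820 (+) for Cd34, chr10:87008039-87008192 (-) for Stab2 and chr8:3720696-3720901 (-) for Clec4g. Capitals mark the letters AGGAA or TTCCT, the core bound by ETS factors, and ACAAT or ATTGT, a core bound by SOX factors.
Cd34: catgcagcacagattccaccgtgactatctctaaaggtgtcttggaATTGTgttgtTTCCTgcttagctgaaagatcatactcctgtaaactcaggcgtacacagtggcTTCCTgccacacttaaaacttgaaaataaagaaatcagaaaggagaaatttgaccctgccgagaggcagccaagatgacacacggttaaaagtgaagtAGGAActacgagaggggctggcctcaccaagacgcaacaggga
Stab2: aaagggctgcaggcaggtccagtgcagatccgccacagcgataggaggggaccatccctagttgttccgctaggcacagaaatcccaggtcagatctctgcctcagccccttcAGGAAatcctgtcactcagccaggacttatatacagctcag
Clec4g: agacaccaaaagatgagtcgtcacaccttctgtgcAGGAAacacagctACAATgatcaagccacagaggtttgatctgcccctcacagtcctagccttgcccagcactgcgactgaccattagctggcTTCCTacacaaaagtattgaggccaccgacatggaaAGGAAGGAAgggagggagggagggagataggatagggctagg
RefSeq promoters were matched for 5 of the 10 members, the other 2 being Fcgr2b and Stab1. Within the 250 bases before the start, the ETS letters were in 5 of 5 of these promoters and in 60.3% of 32851 mouse promoters. The SOX letters were in 3 of 5 (Cd34, Clec4g and Fcgr2b) and in 27.7% of all. The letters GATAA or TTATC, a form of the core bound by GATA factors such as GATA4 of sinusoidal endothelium, were in 0 of 5 and in 22.6% of all. Other forms of that core were not searched. The letters AGATAG are in the printed stretch of Clec4g, and their reverse complement CTATCT is in that of Cd34. The search therefore does not show that these promoters lack GATA sites. The 250 bases are those of the RefSeq table and reach past the printed stretch for Stab2 and Clec4g. Both strands were searched, and ETS matches may overlap, as they do in Clec4g.

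Stabilin 1 and stabilin 2 are large scavenger receptors, and stabilin 2 is the main receptor by which sinusoidal cells clear hyaluronan. Stab2 was 4.74, 4.22 and 5.26 FPKM in LF floxed, 5.71, 8.80 and 10.18 in LF knockout, 11.03, 10.82 and 6.14 in HF floxed and 3.52, 5.98 and 11.77 in HF knockout. Every LF knockout and HF floxed library was above every LF floxed library, while HF knockout spanned the range of all other groups. Stab1 was 2.06, 1.69 and 2.28 FPKM in LF floxed, 2.48, 2.53 and 2.61 in LF knockout, 3.50, 2.97 and 1.84 in HF floxed and 0.79, 5.34 and 3.93 in HF knockout. LF knockout lay above LF floxed without overlap, and the HF groups overlapped both. LYVE1 is a further hyaluronan receptor, of sinusoidal and lymphatic endothelium. Lyve1 was 0.34, 0.71 and 0.43 FPKM in LF floxed, 1.08, 1.44 and 1.44 in LF knockout, 3.74, 4.19 and 1.64 in HF floxed and 0.40, 8.31 and 4.65 in HF knockout. LF floxed, LF knockout and HF floxed formed 3 steps without overlap, and HF knockout held the highest library of all 12 and one within the LF floxed range.

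Clec4g encodes LSECtin, a C-type lectin of sinusoidal endothelium, and had the highest level per length of the 10 genes. It was 26.10, 18.19 and 29.91 FPKM in LF floxed, 32.84, 24.60 and 25.46 in LF knockout, 27.66, 26.93 and 25.22 in HF floxed and 10.51, 20.58 and 27.96 in HF knockout. All 4 groups overlapped. Fcgr2b encodes the inhibitory IgG Fc receptor with which sinusoidal cells take up small immune complexes, and it is also found on B cells and macrophages. It was 15.87, 9.19 and 16.54 FPKM in LF floxed, 14.37, 19.01 and 16.72 in LF knockout, 15.78, 18.52 and 14.28 in HF floxed and 3.63, 17.38 and 20.38 in HF knockout. Again all 4 groups overlapped, and the lowest value was HF knockout replicate 1. Oit3, a gene for a secreted zona pellucida domain protein used as a sinusoidal marker, was 4.85, 3.46 and 4.40 FPKM in LF floxed, 5.48, 6.75 and 7.12 in LF knockout, 7.13, 7.98 and 6.58 in HF floxed and 1.59, 9.20 and 10.46 in HF knockout. LF knockout and HF floxed were both above LF floxed without overlap, and HF knockout was on either side of them.

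Cdh5 encodes VE-cadherin, the adhesion molecule of endothelial junctions. It was 3.58, 1.67 and 4.12 FPKM in LF floxed, 4.07, 5.03 and 5.89 in LF knockout, 5.99, 6.48 and 3.73 in HF floxed and 2.53, 9.67 and 10.49 in HF knockout. Pecam1, for the junction protein CD31, was 3.56, 1.75 and 5.15 FPKM in LF floxed, 3.73, 5.64 and 4.88 in LF knockout, 6.79, 6.76 and 3.43 in HF floxed and 3.03, 7.81 and 11.30 in HF knockout. In both genes each group overlapped every other. Cd34, a sialomucin of capillary endothelium and of blood progenitors, was 0.19, 0.25 and 0.38 FPKM in LF floxed, 0.40, 0.46 and 0.79 in LF knockout, 3.19, 2.59 and 0.53 in HF floxed and 0.15, 1.99 and 1.04 in HF knockout. HF floxed replicates 1 and 2 were the highest of all 12, replicate 3 lay within the LF knockout range, and the lowest of all was HF knockout replicate 1. Vwf encodes von Willebrand factor, which binds platelets and is stored in endothelium of larger vessels. It was 0.67, 0.21 and 0.40 FPKM in LF floxed, 0.45, 1.07 and 1.24 in LF knockout, 0.86, 0.56 and 0.56 in HF floxed and 0.11, 0.47 and 1.69 in HF knockout, and all groups overlapped.

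**Figure D1:**
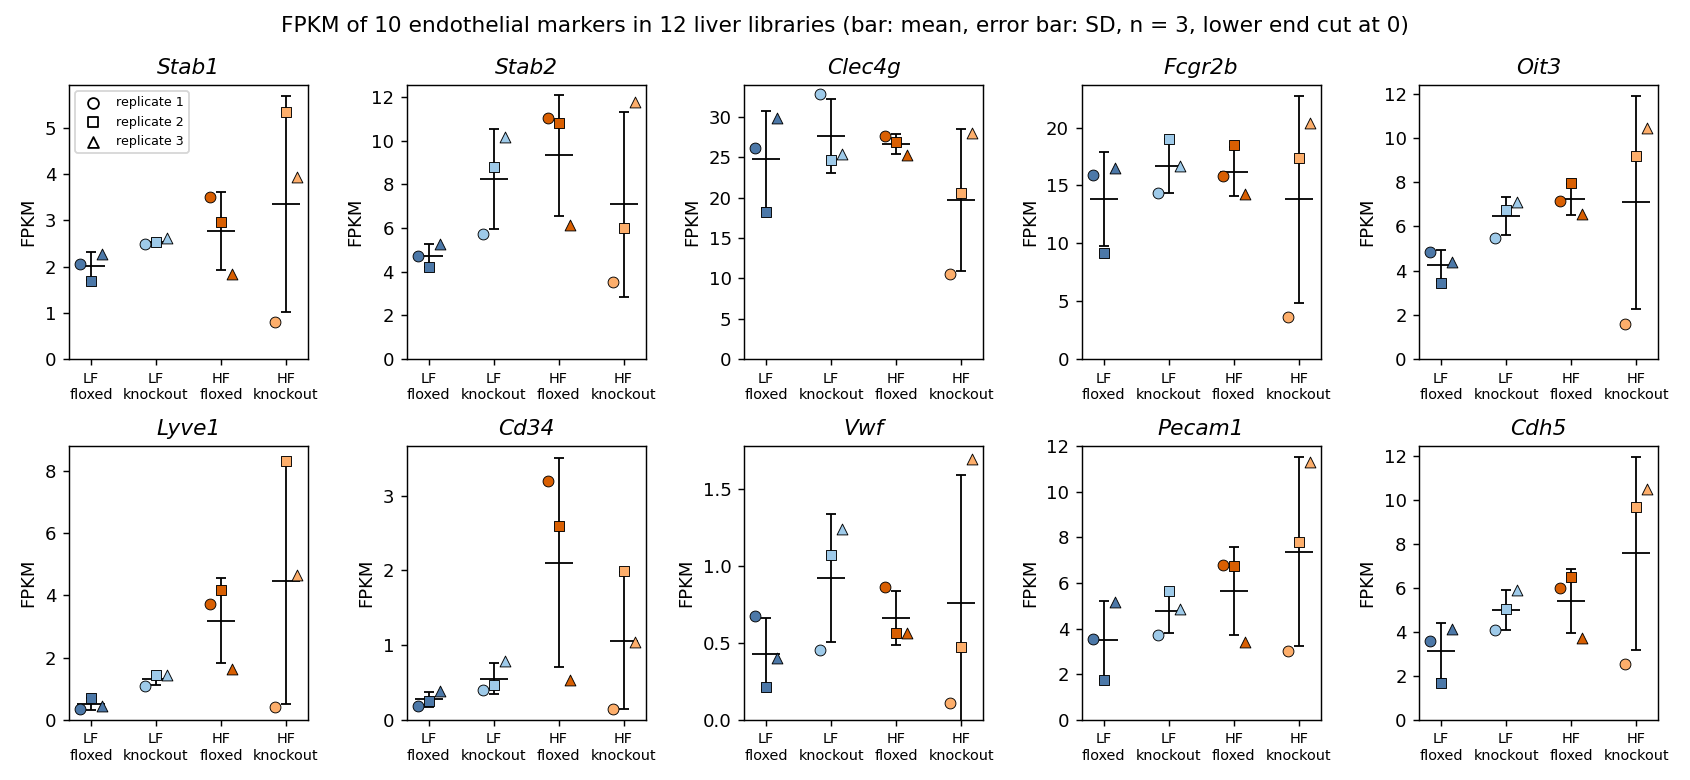
FPKM of each of the 10 genes in the 12 libraries by group, with 1 point per library (circle, square and triangle for replicates 1, 2 and 3), the line at the group mean and the bar for the SD of 3 libraries, cut at 0. Lyve1 lies at 0.34 to 0.71 in LF floxed, 1.08 to 1.44 in LF knockout and 1.64 to 4.19 in HF floxed, and HF knockout replicate 1 is the lowest of its group in all 10 panels.

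In each group 1 library was the lowest for most members. HF knockout replicate 1 was the lowest of its group for 10 of 10 members and the lowest of all 12 for 7 of them, while HF knockout replicate 3 was the highest of all 12 for 6. HF floxed replicate 3 and LF knockout replicate 1 were each the lowest of their group for 9 members, and LF floxed replicate 2 for 8. The SD of HF knockout was therefore wide, as in Cdh5 with 7.56 ± 4.38 FPKM (SD, n = 3) against 5.40 ± 1.47 in HF floxed (SD, n = 3). HF knockout replicate 1 and HF floxed replicate 3 are also the pair whose files are named in another form than the rest. A link of that naming to the low values was not tested.

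Set side by side per length in LF floxed, Clec4g (24.7 ± 5.98 FPKM, SD, n = 3) and Fcgr2b (13.9 ± 4.06) did not overlap and lay far above the rest. Stab2 (4.74 ± 0.52), Oit3 (4.24 ± 0.709), Pecam1 (3.49 ± 1.70), Cdh5 (3.12 ± 1.29) and Stab1 (2.01 ± 0.298) followed, and each overlapped its neighbour in this order. Lyve1 (0.493 ± 0.193), Vwf (0.427 ± 0.231) and Cd34 (0.273 ± 0.0971) were lowest and did not differ beyond their spread. The place of Stab2 depends on its length: of 6 transcripts listed for it, 1 had a RefSeq name of the NM_ form. The deposited gene length moved between 3421 and 4270 bases. In estimated counts Stab1 (265.3 ± 41.5, SD, n = 3) and Stab2 (271 ± 33.1, SD, n = 3) were level in LF floxed. The counts of Fcgr2b were whole in 0 of 12 libraries, as happens where reads are shared with other genes, so its level is uncertain.

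The first comparison asked how these genes differed by diet in floxed livers. Cd34 was 5.98-fold higher in HF floxed than in LF floxed (log2 difference 2.58, SE 0.77, n = 3 per group) and Lyve1 5.21-fold higher (2.38, SE 0.73). Stab2 was 1.79-fold higher (0.84, SE 0.36) and Oit3 1.41-fold higher (0.50, SE 0.42). Cdh5 differed by 0.49 on the log2 scale, Pecam1 by 0.40, Vwf by 0.36, Stab1 by 0.17, Clec4g by -0.16 and Fcgr2b by -0.20, with SEs of 0.26 to 0.70. The largest differences were therefore those of Cd34, Lyve1 and Stab2, and the most abundant sinusoidal genes, Clec4g and Fcgr2b, were the only members below 0.

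After Benjamini-Hochberg adjustment over all genes, edgeR's quasi-likelihood test at a false discovery rate of 5% called 0 of 10 members, and it called 0% of all genes. The adjusted p from edgeR was 0.277 for Cd34, 0.28 for Lyve1 and 0.388 for Stab2. At an unadjusted p under 0.05 those 3 were higher, against 6.85% of all genes, and 8 of 10 differences were above 0, against 49.9%. The values of 4 members (Stab2, Lyve1, Cd34 and Oit3) did not overlap between the groups in FPKM, against 23.6% of all genes in that direction, and the same 4 did not overlap in TMM-scaled CPM (counts per library size after scaling by edgeR), against 11.5%. The exact two-sided permutation p of these 4 was 0.1, the smallest that 3 against 3 libraries can give. The median log2 difference was 0.44 over the members and -0.00 over all genes. With 1 library left out, the members' median was lowest without LF floxed replicate 2, at 0.12 (0.00 over all genes). It was highest without LF floxed replicate 1, at 0.63 (0.02 over all genes). Without LF floxed replicate 2, Cdh5 went from 0.49 to 0.18, Pecam1 from 0.40 to 0.07 and Vwf from 0.36 to 0.03.

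DESeq2, another count test, called 2 of 10 members higher, Lyve1 (log2 difference 2.39, adjusted p 0.0373) and Cd34 (2.59, adjusted p 0.0391), where it called 2.02% of all genes. With edgeR on these 6 libraries alone Lyve1 was called (2.39, adjusted p 0.0485) and Cd34 was not (2.59, adjusted p 0.096). When the libraries HF floxed 3 and HF knockout 1 were omitted as a pair, since their files are named in another form than the other 10, edgeR called both (Lyve1 2.62, adjusted p 0.0129, and Cd34 2.99, adjusted p 0.0179). Over all alternatives the adjusted p of Lyve1 ran from 0.0129 to 0.886 and that of Cd34 from 0.0179 to 0.886, with the highest where near-identical libraries were averaged. On the log2(FPKM + 0.1) scale, where the median of all genes lay at 0.24, Clec4g (0.13) and Fcgr2b (0.26) were above 0.

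In the libraries labelled knockout the diet difference was 1.69 on the log2 scale for Lyve1 (SE 0.69, 3.24-fold, edgeR adjusted p 0.367) and 0.90 for Cd34 (SE 0.73, adjusted p 0.643). Pecam1 (0.62), Cdh5 (0.56), Stab1 (0.36) and Oit3 (0.08) were above 0, and Stab2 (-0.17), Vwf (-0.35), Fcgr2b (-0.40) and Clec4g (-0.52, SE 0.26) below. edgeR called 0 of 10 members and 0% of all genes, DESeq2 0 of 10 and 1% of genes. At an unadjusted p under 0.05 Lyve1 alone was higher, against 8.81% of genes, 6 of 10 differences were above 0, against 52.9%, and 0 of 10 members had groups without overlap in FPKM, against 5.59% of genes in the higher and 5.98% in the lower direction. The median was 0.22 over the members and 0.03 over all genes.

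Single libraries moved these values. Without HF knockout replicate 1, 8 of 10 members were above 0, 6 had an unadjusted p under 0.05 (19.8% of all genes did, in either direction) and the median was 0.65, with 0 members called by edgeR. Without HF knockout replicate 2, 4 of 10 were above 0, 0 had an unadjusted p under 0.05 (8.77% of genes did) and the median was -0.09. Without HF knockout replicate 3, 5 of 10 were above 0, 3 were lower at an unadjusted p under 0.05 (15.8% of genes passed it in either direction) and the median was 0.01. The sign of the members' median thus differed with the library left out. Without replicate 2 the Lyve1 difference was 0.86 and the Cd34 difference went from 0.90 to 0.08 (edgeR adjusted p 0.989).

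Averaged over both genotypes, Lyve1 was 4.11-fold higher on HF (log2 difference 2.04, SE 0.50, edgeR adjusted p 0.2) and Cd34 3.34-fold higher (1.74, SE 0.53, edgeR adjusted p 0.204). Cdh5 (0.52) and Pecam1 (0.51) had the next largest differences, Stab2 (0.34), Oit3 (0.29), Stab1 (0.26) and Vwf (0.01) were above 0, and Fcgr2b (-0.30) and Clec4g (-0.34) below. edgeR called 0 of 10 members and 0.00794% of all genes. DESeq2 called 2 of 10, Lyve1 (adjusted p 0.00596) and Cd34 (adjusted p 0.0403), and 3.2% of genes. At an unadjusted p under 0.05 edgeR had 2 members higher, again Lyve1 and Cd34, against 10.4% of genes. The exact permutation test within genotypes gave a p of 0.035 for Lyve1, where 10.4% of all genes were under 0.05 in either direction, and 0.08 for Cd34. Without HF knockout replicate 1 edgeR called Lyve1 (2.29, adjusted p 0.0169) and not Cd34 (1.97, adjusted p 0.0577), and 7 members had an unadjusted p under 0.05, where 25.2% of all genes did in either direction. The members' median then went from 0.31 to 0.49. Without HF knockout replicate 2 it was 0.28, with 2 members higher at that level (13.5% of genes passed it). Without HF knockout replicate 3 it was 0.17, with 2 higher and 1 lower (14.9% of genes passed). edgeR called 0 members in both. Without HF floxed replicate 1 the edgeR adjusted p of Lyve1 was 0.451.

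**Figure D2:**
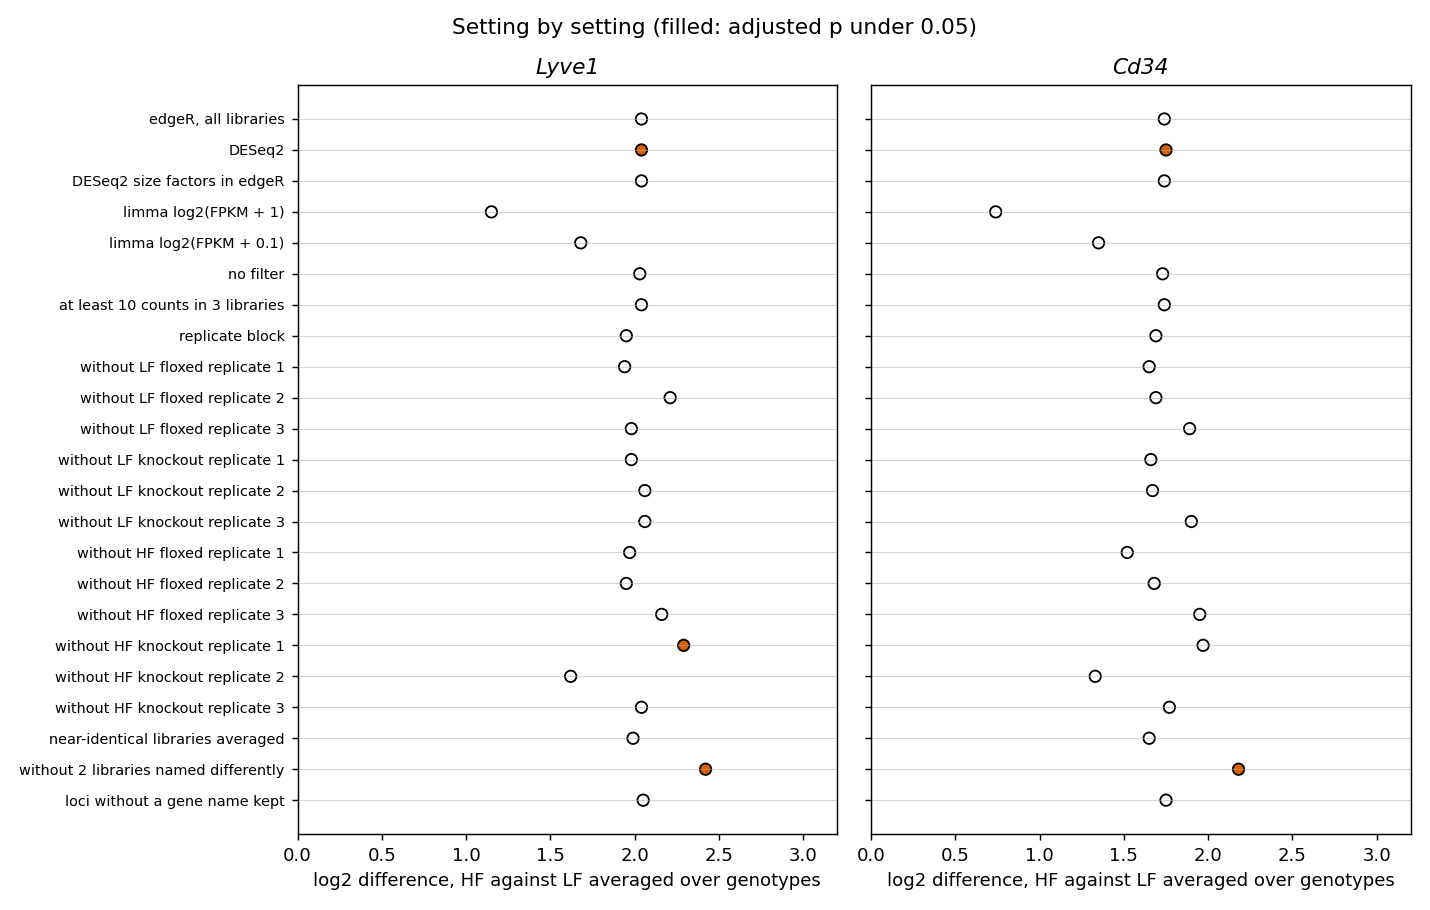
Log2 difference of Lyve1 (left) and Cd34 (right) for HF against LF averaged over genotypes (horizontal axis), with 1 row per way of processing and filled points where the adjusted p is under 0.05. Lyve1 lies between 1.15 and 2.42 and Cd34 between 0.74 and 2.18, and points are filled under DESeq2 and without the pair of libraries whose files are named differently, and for Lyve1 also without HF knockout replicate 1.

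The genotype was compared within each diet, in the same libraries as above, so that these comparisons share groups with those of the diet. On LF, 9 of 10 members were higher in the libraries labelled knockout, against 47.4% of all genes, with a median of 0.45 against -0.02. Lyve1 differed by 1.24 on the log2 scale (SE 0.73), Vwf by 0.91 (SE 0.70), Stab2 by 0.75 (SE 0.36), Cd34 by 0.75 (SE 0.77), Cdh5 by 0.48 and Oit3 by 0.42. Pecam1 (0.27), Stab1 (0.15), Fcgr2b (0.05) and Clec4g (-0.01) were nearest to 0. The values did not overlap for 5 members in FPKM (Stab1, Stab2, Lyve1, Cd34 and Oit3), against 16% of all genes in that direction, and for 3 in TMM-scaled CPM (Stab2, Lyve1 and Oit3), against 6.53%.

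None of these passed the test: edgeR called 0 of 10 members and 0.0159% of all genes, 0 had an unadjusted p under 0.05 (2.58% of genes were higher and 2.55% lower at that level), and the adjusted p was 0.929 or more for each member. DESeq2 also called 0 of 10 (0.27% of genes), with 1 at an unadjusted p under 0.05, where 6.15% of all genes were in either direction. LF floxed replicate 2, the lowest of its group in 8 members, moved the median over the members from 0.45 to 0.23 when it was left out, with 7 of 10 above 0.

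On HF the same comparison gave 6 of 10 differences above 0, against 53.4% of genes, and a median of 0.10 against 0.03. Cdh5 (0.55, SE 0.40), Lyve1 (0.55, SE 0.66) and Pecam1 (0.50, SE 0.41) had the largest differences upwards, and Cd34 (-0.92, SE 0.71), Clec4g (-0.37, SE 0.26) and Stab2 (-0.26, SE 0.35) the largest downwards. edgeR called 0 of 10 members and 0% of genes and DESeq2 0 of 10 and 0.548% of genes, with 0 members at an unadjusted p under 0.05 by either (4.59% of genes higher and 3.06% lower by edgeR). No member had groups without overlap in FPKM, against 2.25% of genes in the higher and 7.08% in the lower direction.

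The directions depended on single libraries. Without HF knockout replicate 1, 8 of 10 members were above 0, 5 had an unadjusted p under 0.05 (13.4% of all genes did) and the median was 0.58. Without replicate 2, 3 of 10 were above 0, 1 was lower at an unadjusted p under 0.05 (8.09% of genes passed it) and the median was -0.20. Without replicate 3, 4 of 10 were above 0, 2 were lower at that level (12.5% of genes passed it) and the median was -0.37. Single members turned as well. Without replicate 2, Lyve1 went from 0.55 to -0.29 and Stab1 from 0.34 to -0.17, and without replicate 3 Vwf went from 0.20 to -1.07. On the log2(FPKM + 0.1) scale 2 of 10 members were above 0, where the median of all genes lay at -0.14.

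**Figure D3:**
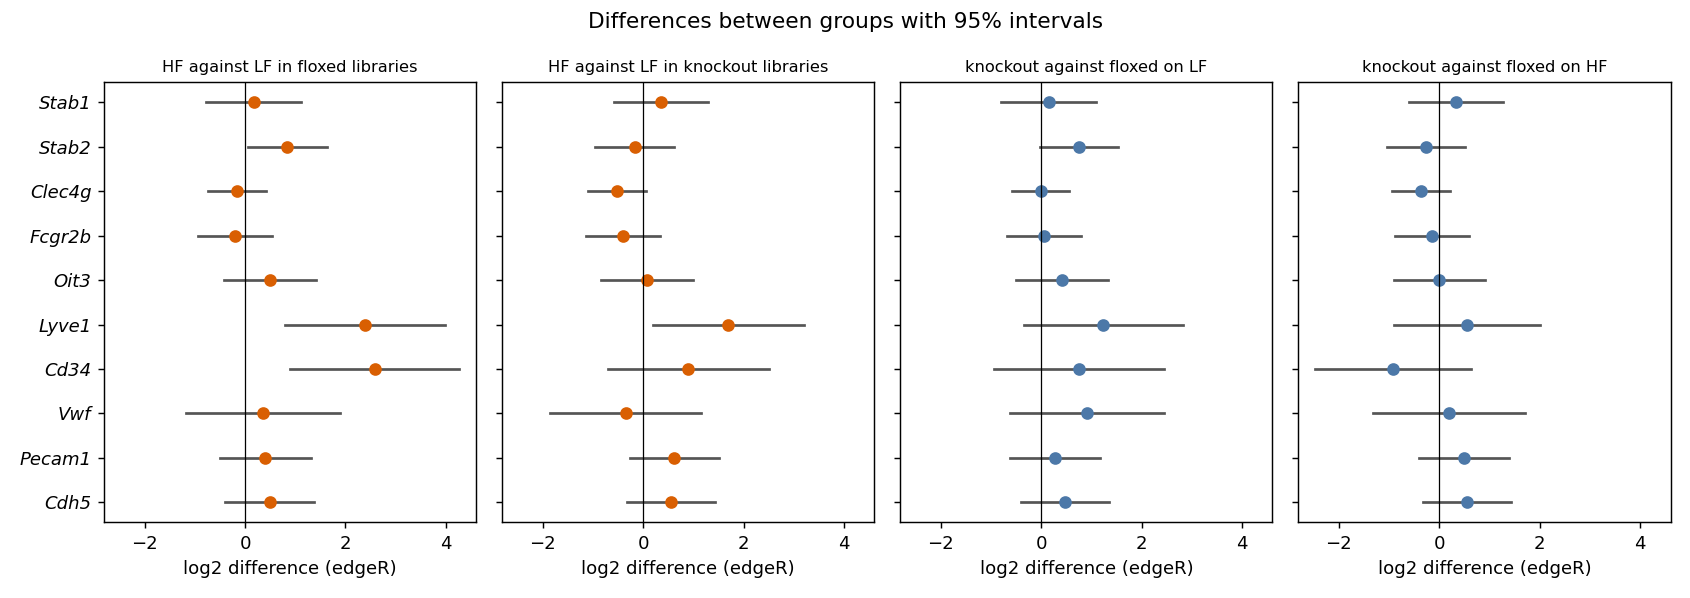
Log2 differences of the 10 genes from edgeR with 95% intervals in 4 panels, HF against LF in floxed libraries and in knockout libraries (orange) and knockout against floxed on LF and on HF (blue), with a vertical line at 0. The intervals of Lyve1 and Cd34 in the first panel begin at 0.79 and 0.89, and those of all 10 genes in both genotype panels include 0.

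Averaged over diets the genotype difference was largest for Lyve1 (0.89, SE 0.49) and Vwf (0.55, SE 0.49), with 7 of 10 members above 0 against 51.1% of genes. edgeR called 0 of 10 members and 0% of genes, and DESeq2 0 of 10 and 0.183% of genes. No member had an unadjusted p under 0.05 by either tool, against 1.85% of genes higher and 1.37% lower by edgeR. Whether the diet difference depended on the genotype was tested by the interaction. Stab2 had the smallest adjusted p from edgeR, 0.551, for an interaction of -1.01 (SE 0.50), its diet difference being 0.84 in floxed and -0.17 in knockout libraries. Cd34 had the largest interaction, -1.68 with a 95% interval of -3.97 to 0.62. edgeR called 0 of 10 members and 0.0159% of genes, with 0 at an unadjusted p under 0.05 (5.21% of genes above and 4.34% below 0). DESeq2 called 0 of 10 and 0.85% of genes, and 3 of 10 members were above 0, against 54% of genes.

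Ratios to Cdh5 within each library set the members against a common endothelial gene, as a description. Pecam1 stayed level with Cdh5, with mean log2 FPKM ratios of 0.13 (floxed) and -0.08 (knockout) on LF and of 0.04 (floxed) and 0.02 (knockout) on HF. Clec4g over Cdh5 was 3.06, 2.47, 2.34 and 1.52 and Fcgr2b over Cdh5 2.20, 1.75, 1.62 and 0.77 in the same order. The Fcgr2b ratio was 0.52, 0.85 and 0.96 in the HF knockout libraries and 1.40 to 2.46 in the other 9. It was picked out after the ratios were seen: 3 of the 9 members set over Cdh5 (Fcgr2b, Oit3 and, by a log2 margin under 0.01, Clec4g) were lower in all HF knockout libraries than in any other. Of 12586 tested genes set over Cdh5 in this way, 1.26% were. Lyve1 over Cdh5 instead was -2.63, -1.92, -0.83 and -1.35, and Cd34 over Cdh5 -3.47, -3.23, -1.68 and -3.23. Stab2 over Cdh5 was 0.70, 0.69, 0.78 and -0.02, with -0.69 in HF knockout replicate 2. A ratio shows unequal change of the pair and does not say which of the genes moved.

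**Figure D4:**
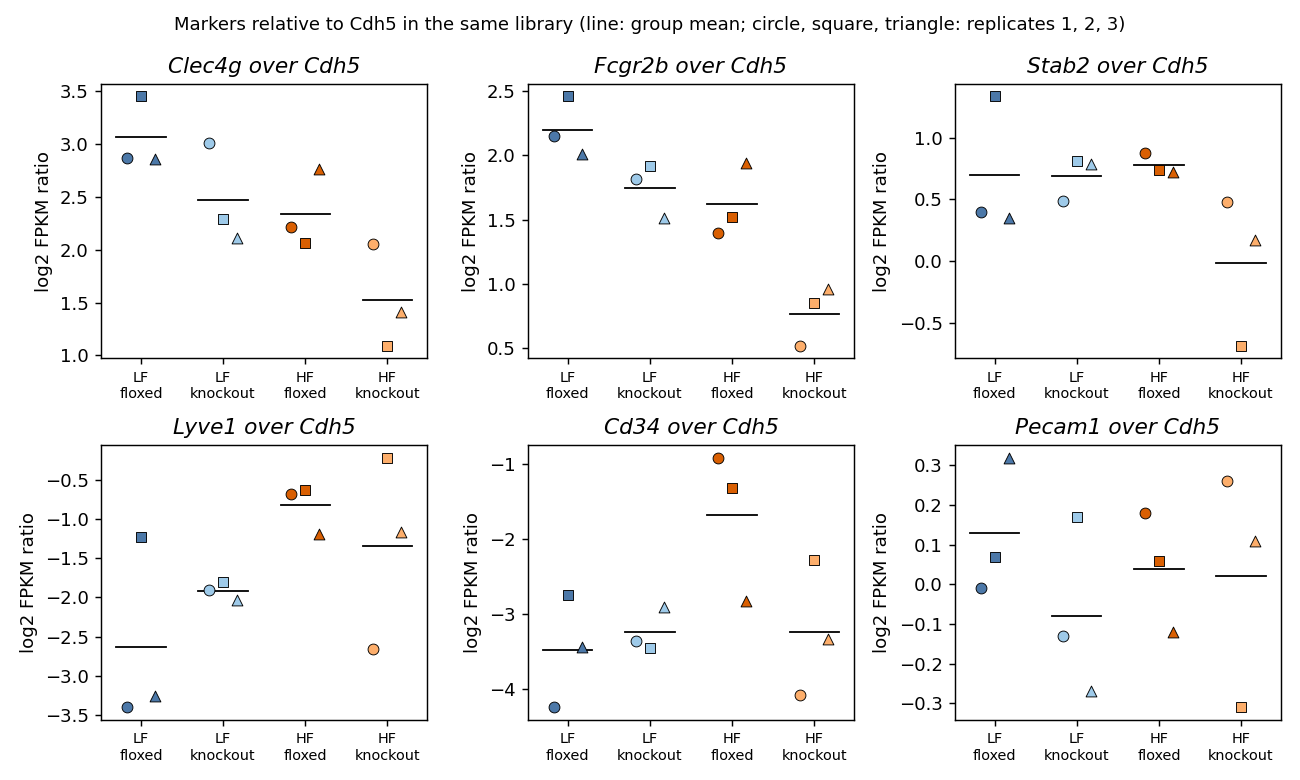
Log2 FPKM ratio of 6 members to Cdh5 in each of the 12 libraries by group, with the line at the group mean and circle, square and triangle for replicates 1, 2 and 3; the vertical scale differs between panels. Fcgr2b over Cdh5 is below 1 in the 3 HF knockout libraries and 1.40 or more in the other 9, while Pecam1 over Cdh5 stays within -0.31 and 0.32.

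Across the 12 libraries, which differ in diet, genotype and cell content, log2(FPKM + 0.1) of Pecam1 and Cdh5 had a Pearson correlation of 0.96, and again 0.96 without HF knockout replicate 1. Lyve1 and Cd34 had 0.90 and 0.88 without that library. Stab1 and Clec4g went from 0.63 to 0.04 and Clec4g and Oit3 from 0.72 to 0.16, so that the link of Clec4g to these members rested on 1 library. Among 9780 protein-coding genes with a mean of at least 1 FPKM, those most like Cdh5 were Heg1 (r = 0.973), Cd38 (0.955), Ywhab (0.950), Fyn (0.949) and Elk3 (0.945). For Vwf they were Tek (0.935), which encodes the angiopoietin receptor TIE2, Calcrl (0.931), Trim37, Ddx46 and Pggt1b. For Stab2 they were Pigk (0.978), Vps41 (0.966), Ssb (0.965), Sp100 (0.964) and Picalm (0.953).

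Other endothelial genes were read from lists, in the diet comparison averaged over genotypes, where 51.5% of all genes were above 0. Of 20 further sinusoidal genes 19 were tested, 10 were higher and 9 lower, and the median was 0.01. Cd36, the fatty acid and thrombospondin receptor that hepatocytes and macrophages also express, had the smallest p in that list (1.75, SE 0.45, edgeR adjusted p 0.2). Its difference was 3.81 in floxed libraries (SE 0.70, edgeR adjusted p 0.175) and -0.31 in knockout libraries (SE 0.62, adjusted p 0.874). Of 20 pan-endothelial genes 14 were higher (median 0.14), and the tight junction gene Cldn5 had the smallest p (-0.57, SE 0.15, adjusted p 0.2). Of 14 tested genes of central and portal vein endothelium 9 were higher (median 0.26), with Ackr1 at 0.71 (SE 0.34).

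Of 14 capillary and basement membrane genes 12 were tested. The summed FPKM of the 14 was 54.18 in HF knockout replicate 1, against 79.82 to 127.3 in the LF libraries. In knockout libraries alone 10 of 12 were higher on HF, against 52.9% of all genes. Averaged over genotypes all 12 were higher, with a median of 0.57. At an unadjusted p under 0.05, 6 of them were higher, against 10.4% of all genes. In floxed libraries alone all 12 were higher on HF (median 0.74), as were 10 of 10 stellate cell and fibroblast markers (median 0.88). In knockout libraries 5 of those 10 markers were higher. Which cells of the whole liver gave the RNA of these 12 genes was not tested. Esm1, for endocan of sprouting endothelium, was 0.03, 0.32 and 0.49 FPKM in LF floxed, 0.17, 0.15 and 0.12 in LF knockout, 1.82, 2.80 and 0.34 in HF floxed and 0.23, 8.72 and 2.00 in HF knockout (3.39, SE 0.81, edgeR adjusted p 0.2). Col4a2, a basement membrane collagen, was 1.17 to 1.70 FPKM in LF floxed and 3.15 to 6.45 in HF floxed (1.52, SE 0.56, edgeR adjusted p 0.331). In knockout libraries its diet difference was 1.61 (SE 0.55, edgeR adjusted p 0.344), and averaged over genotypes 1.57 (SE 0.39, edgeR adjusted p 0.2). Of 7 tested adhesion and activation genes 4 were higher (median 0.83), with Vcam1 at 1.45 (SE 0.43) and Cd44 at 1.20 (SE 0.37). edgeR called 0 genes in each of these 5 lists, and DESeq2 called 1 sinusoidal, 1 pan-endothelial, 0 vein, 4 capillary and basement membrane and 2 adhesion genes. Over all genes edgeR called 0.00794% and DESeq2 3.2%.

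For the genotype on HF, where 53.4% of genes were above 0, 9 of 19 further sinusoidal, 13 of 20 pan-endothelial, 7 of 14 vein, 7 of 12 capillary and basement membrane and 7 of 7 adhesion genes were higher, with 0 called by edgeR and 0 by DESeq2 in each. The smallest p in these lists belonged to Ehd3 (-0.73, SE 0.36), Ramp2 (-0.42, SE 0.29), Ephb4 (0.54, SE 0.16), Lamb1 (-0.69, SE 0.42) and Icam1 (0.87, SE 0.38). Without HF knockout replicate 1 the count was 18 of 20 for the pan-endothelial list, and without HF knockout replicate 2 it was 2 of 12 for capillary and basement membrane.

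Markers of other cell types, some of which also express members, differed between libraries as well. The summed FPKM of 11 Kupffer cell markers ran from 92.98 to 278.7 in LF floxed, 124.5 to 186 in LF knockout, 146 to 318.4 in HF floxed and 141.2 to 578.5 in HF knockout. HF knockout replicate 1, lowest in the members, had 376.4, and replicate 2, highest in Lyve1, had 141.2. B cell markers, 5 of 6 listed, summed to between 0.88 and 6.05 FPKM, with Pax5 at 0 in 4 libraries. The 8 platelet markers summed to 1.30 to 6.62 FPKM in 11 libraries and to 25.73 in HF knockout replicate 3, which also had the highest Vwf (1.69) and 512.1 FPKM in 8 neutrophil markers against 1.75 to 11.71 elsewhere. The 10 stellate cell and fibroblast markers ran from 58.68 to 103.7 in LF floxed, 70.81 to 100.4 in LF knockout, 106.4 to 204.3 in HF floxed and 40.43 to 138.8 in HF knockout. In HF floxed they were lowest in replicate 3. That library was also the lowest of its group for 9 members and for the Kupffer cell, B cell, platelet, cholangiocyte and neutrophil sums. Of the stellate cell and fibroblast markers 10 of 10 were higher in HF floxed than in LF floxed (median 0.88), against 49.9% of all genes. Of these 5 had an unadjusted p under 0.05, against 6.85% of genes, edgeR called 0 and DESeq2 called 3, against 2.02% of genes. In the knockout libraries 5 of 10 were higher on HF (median 0.08).

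The 6 lymphatic markers summed to between 12.36 and 23.06 FPKM. Of these, Mmrn1 (0 to 0.12 FPKM), Pdpn (0 to 0.62) and Ccl21a (0 to 1.88) were low, and Prox1, which hepatocytes also express, was 6.87 to 14.94. The 6 cholangiocyte markers summed to 755.1 in HF knockout replicate 2, of which Spp1 made 743.15, against 21.8 to 108.8 elsewhere, and the 12 hepatocyte markers to 120800 there against 46890 to 80820. The hepatocyte sum was 46890 to 52210 in HF floxed and 58730 to 80820 in LF floxed, without overlap. Of the 12 markers 11 were lower in HF floxed than in LF floxed (median -0.64), where 49.9% of all genes were above 0. edgeR and DESeq2 each called 0 of the 12, against 0% and 2.02% of all genes. At an unadjusted p under 0.05 edgeR had 0 of them, against 5.32% of genes lower. DESeq2 had 4 lower, where 14% of genes passed in either direction. The part of these other cells in the differences of the members and of the endothelial lists was not tested.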

How the data were processed

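Total RNA of mouse liver was sequenced in 12 libraries, 3 in each of 4 groups by diet and genotype, and each library has 1 deposited file. The estimated counts (expected counts) in these files were made by the authors and are not scaled, per the file headers. The FPKM values were computed by the authors from gene length and library size, per the file headers. The gene length in bases, averaged over the transcripts listed, is a further column deposited per library. The build was mm9, per the submitters' processing notes. The aligner and the counting tool were not given in the sources used here.

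Genes missing from a file were taken as 0 there. Loci without a gene name, with 6.65 to 17.33% of the counts, were left out. Rounded counts went into edgeR 4.0.16 (R 4.3.3, limma 3.58.1): TMM factors, filterByExpr (12587 genes), trended dispersion and the quasi-likelihood F test, with 1 mean per group over all 12 libraries and Benjamini-Hochberg adjustment over all genes in each of 7 comparisons. A gene was called at a false discovery rate of 5%. The biological coefficient of variation was 34.8%. Exact two-sided permutation tests used log2(FPKM + 0.1), over 20 labellings of 3 against 3 libraries or 400 within the other factor, whose smallest p is 0.005. Alternatives included DESeq2 1.42.0, other scalings, filters and units, a replicate block and each library left out. The pipeline was tested on simulated counts.

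The members and lists were chosen with earlier results of these data known, so no p is adjusted over the members alone and no list was tested. Genes were named by rule: the 10 members, the genes most like Stab2, Cdh5 and Vwf, and the genes of smallest p in each list (marker lists of other cells by level). The values of 1 marker are not reported here.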

Additional observations from a re-analysis of the deposited data

How the results depend on the processing

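Depth limits Cd34 and Lyve1 most: in LF floxed they had 11.33 and 20.67 estimated counts per library on average. No member was called by edgeR on all 12 libraries, and calls of Lyve1 and Cd34 for the diet came with DESeq2, with the compared groups alone (Lyve1), without HF knockout replicate 1 (Lyve1) or without both libraries whose files are named in another form. Where values below changed direction, the cause was not tested. Of 740 values of single members under alternatives other than leaving out 1 library, 692 kept direction and stayed uncalled, 39 changed direction and 9 became called. With 1 library left out, 788 kept direction and stayed uncalled, 51 changed direction and 1 became called. There was no main call to keep, and a change of size alone was not counted, so these counts do not measure how firm a difference was.

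The number of genes called was 0 for the diet in floxed libraries, 0 for the diet in knockout libraries, 2 for genotype on LF, 0 for genotype on HF, 1 for the diet averaged, 0 for genotype averaged and 2 for the interaction. In the same order DESeq2 called 254, 126, 34, 69, 403, 23 and 107. Without the pair of differently named files the counts were 158, 2, 7, 3, 682, 1 and 5. The compared groups alone gave 82 for the diet in floxed libraries and 11 for genotype on LF. With near-identical libraries averaged the counts for genotype on LF, the averaged diet and the interaction were 0, 0 and 0. With unnamed loci kept they were 3 for the diet in floxed libraries, 2 for the averaged diet and 1 for the interaction. Without the filter they were 1 for the diet in floxed libraries and 1 for genotype averaged. With limma, genotype on LF gave 0 (log2(FPKM + 1)) and 1 (log2(FPKM + 0.1)), and the diet in floxed libraries gave 1 on the second scale. With 1 library left out the 7 counts ranged from 0 to 14, 0 to 10, 0 to 13, 0 to 14, 0 to 7, 0 to 8 and 1 to 17.

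The replicate numbers did not pair the libraries: 3 of 18 same-numbered pairs correlated above 0.1 in their deviations (range -0.32 to 0.41), and in 6 of these 18 the own number was the best match. With a replicate block the count of called genes was 0 for genotype on LF, 0 for the averaged diet and 1 for the interaction. The block also gave -0.01 (Oit3, diet in knockout libraries), 0.02 (Clec4g, genotype on LF), -0.06 (Vwf) and -0.09 (Oit3) for genotype on HF, and -0.09 (Vwf, averaged diet).

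Scaling moved all genes on FPKM: the median of all genes was 0.20 and 0.24 with pseudocounts 1 and 0.1 for the diet in floxed libraries, 0.12 and 0.15 for genotype on LF, -0.11 and -0.14 for genotype on HF and -0.23 and -0.29 for the interaction. Members that changed direction on these scales, in this order of pseudocounts, were Clec4g (0.13 and 0.13) and Fcgr2b (0.24 and 0.26) for the diet in floxed libraries, Oit3 (-0.14 and -0.24) for the diet in knockout libraries and Clec4g (0.17 and 0.18) for genotype on LF. For genotype on HF they were Vwf (-0.01 and -0.32), Oit3 (-0.29 and -0.41) and, with 0.1 alone, Stab1 (-0.05) and Lyve1 (-0.17). For the interaction they were Stab1 (-0.19 and -0.38), Pecam1 (-0.18 and -0.29) and Cdh5 (-0.31 and -0.46), and for the averaged diet Vwf (-0.03 with 0.1).

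Clec4g for genotype on LF was 0.01 with DESeq2, 0.01 with its size factors, 0.08 with near-identical libraries averaged and 0.01 without the differently named pair. Oit3 for genotype on HF was -0.01 without the filter and -0.01 with near-identical libraries averaged, where Cd34 for genotype averaged was 0.00. Without the differently named pair, the diet in knockout libraries gave 0.12 for Stab2 and 0.13 for Vwf, and Fcgr2b was 0.26 for genotype on HF, 0.17 for genotype averaged and 0.19 for the interaction, with Oit3 at 0.05 for the interaction.

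With 1 library left out, Stab1 ranged from -0.02 to 0.32 for the diet in floxed libraries. For the diet in knockout libraries the ranges were -0.15 to 0.78 (Stab1), -0.70 to 0.12 (Stab2), -1.61 to 0.13 (Vwf) and -0.25 to 0.51 (Oit3). For genotype on LF they were -0.20 to 0.16 (Clec4g), -0.06 to 0.66 (Pecam1) and -0.15 to 0.19 (Fcgr2b). For genotype on HF they were -0.17 to 0.79 (Stab1), -0.79 to 0.06 (Stab2), -0.29 to 1.09 (Lyve1), -1.07 to 0.70 (Vwf), -0.42 to 0.23 (Fcgr2b) and -0.32 to 0.46 (Oit3). The averaged diet gave 1.62 to 2.29 for Lyve1 and -0.62 to 0.26 for Vwf. Genotype averaged gave -0.01 to 0.48 (Stab1), -0.02 to 0.41 (Stab2), -0.08 to 0.81 (Vwf), -0.50 to 0.18 (Cd34) and -0.18 to 0.15 (Fcgr2b). The interaction gave -0.31 to 0.63 (Stab1), -0.14 to 0.55 (Pecam1), -0.16 to 0.44 (Cdh5), -0.48 to 0.16 (Fcgr2b) and -0.74 to 0.02 (Oit3).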
